A study of Homo sapiens with 6 samples.

Results

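SOX transcription factors were followed in KNS42 cells, a long-established line that originates from a childhood glioblastoma (GBM), upon depletion of the RNA-binding protein MSI1. The group comprises the 10 SOX genes known from neural stem cells and glioma, namely SOX2, SOX3, SOX4, SOX5, SOX6, SOX8, SOX9, SOX10, SOX11 and SOX21, which were taken by name from the 58174 genes of the deposited table. KNS42 cells received either a control siRNA (siC, n = 3 libraries) or siRNAs against MSI1 (siMSI1, n = 3 libraries), were kept in serum-containing medium as adherent cultures, and were harvested 72 h later for polyA mRNA-seq. KNS42 is 1 cell line, so that the libraries are replicates of 1 genetic background, and no source used here says whether they came from separate cultures. p-values therefore measure the spread between these libraries, which may be technical.

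SOX proteins bind DNA through an HMG box, which bends the double helix, and act together with partner factors such as POU and PAX proteins. SOXB1 proteins (SOX2, SOX3) keep neural progenitors undifferentiated and the SOXB2 protein SOX21 counteracts them. SOXC proteins (SOX4, SOX11) act in neuronal precursors, SOXD proteins (SOX5, SOX6) lack an activation domain of their own and modulate other SOX proteins, and SOXE proteins (SOX8, SOX9, SOX10) specify glia, neural crest and, in the case of SOX9, cartilage. MSI1 is a neural stem cell protein that binds RNA elements with a UAG core, mostly in 3′UTRs.

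The libraries held 13087025 to 18024080 reads on genes, as recovered from the FPKM values (reads scaled to gene length and to a library size that differed slightly from these reads). With 3 reads taken as the floor, the limit of detection of a 2 kb gene was 0.0829 to 0.114 FPKM, and such floors cover counting error only. MSI1, the targeted gene, was measured at 63.7, 61.9 and 66.9 FPKM in siC versus 12.1, 12.3 and 11.2 FPKM in siMSI1, which is a log2 fold change of -2.43 (SE 0.067, adjusted p = 8.71e-06). The depletion was thus seen in 3 of 3 siMSI1 libraries. Markers of neural stem cells or glioma were detected for 6 of 6 genes, whereas 5 of 6 oligodendrocyte markers and 4 of 5 markers of oligodendrocyte precursors stayed at or under the floor. The summed level of the stem cell or glioma markers, which include MSI1, was 1250 to 1311 FPKM in siC and 976 to 1093 FPKM in siMSI1. Most of this sum was VIM, with 996 to 1056 FPKM in siC and 824 to 937 FPKM in siMSI1. The part of these markers in the results below was not tested.

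Of the 6 tested among the 10 SOX genes, SOX9 alone passed the test, with a decrease to 65.6% of its siC level. SOX2 was by far the most abundant member in both groups and was measured at 85.6% of its siC level, which did not pass the test. SOX21 and SOX4 followed in abundance and also missed the threshold, SOX5 and SOX6 were low, and SOX3, SOX8, SOX10 and SOX11 were at or under the floor of 3 reads in each library. Changes were tested with limma on log2(FPKM + 0.1) in the 15069 genes with a mean of at least 0.5 FPKM, and a gene was called at an adjusted p of at most 0.01. Of all genes tested, 11% were called, 5.83% as lower and 5.15% as higher in siMSI1. Of the 10 SOX genes, 6 were tested and 1 of these was called. The median log2 fold change over these 6 genes was -0.14 and 6 of 6 values were below 0, compared to 7534 of the 15069 genes tested. However, the signs of SOX5 and SOX6 turned under some alternative settings. Of the 3 other SOX genes tested, 0 had a value below 0. The values of 3 of the 6 genes, SOX2, SOX21 and SOX9, did not overlap between the groups, always with siMSI1 lower, which held for 21.5% of all genes tested.

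**Figure D1:**
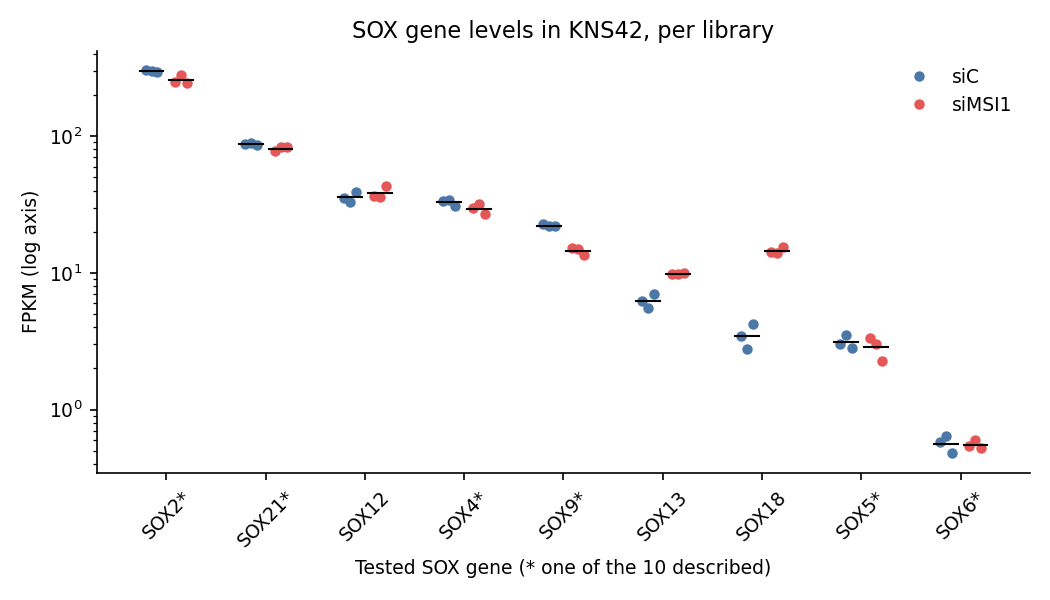
FPKM (log axis) of the 9 tested SOX genes in each of the 3 siC and 3 siMSI1 libraries, with asterisks on the 6 that belong to the 10 genes described and horizontal lines at the group means. SOX2 lies above all others in both groups, SOX9 shows separated groups with siMSI1 lower, and SOX13 and SOX18 show separated groups with siMSI1 higher.

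The promoter stretch of SOX2 is shown since SOX2 is the leading SOX transcript of these cells and SOX and POU factors are known to act on SOX2 regulatory regions. The 250 bases before the RefSeq start of SOX2 lie at chr3:181711675-181711924 on the plus strand (GRCh38.p14), with a SOX motif found by search in capitals, and 68.8% of these bases are G or C.

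SOX2: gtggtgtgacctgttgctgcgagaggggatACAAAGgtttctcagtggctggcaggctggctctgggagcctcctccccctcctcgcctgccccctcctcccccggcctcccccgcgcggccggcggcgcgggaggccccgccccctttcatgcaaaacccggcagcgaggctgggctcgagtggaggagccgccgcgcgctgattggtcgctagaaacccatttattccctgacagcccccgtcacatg

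Both strands were searched for the SOX motifs ACAAAG and AACAAT and the POU octamer ATGCAAAT. ACAAAG was found in 13.7%, AACAAT in 8.98% and ATGCAAAT in 1.63% of 35116 windows of this length before RefSeq starts. SOX2 held 1 ACAAAG, SOX5 held 1 AACAAT, and SOX3, SOX4 and SOX21 held none of the 3 motifs. Of the 5 start sites listed for SOX6, 3 had at least 1 of the SOX motifs. RefSeq windows were matched for 6 of the 10 genes. A match of such short motifs is a description and not a binding site.

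The start of SOX21 is shown because the RefSeq starts of SOX21 and of the antisense transcript SOX21-AS1 point away from each other here, whereas GENCODE 44 lets SOX21-AS1 begin at position 94703454, beyond the other end of SOX21. The 250 bases before the SOX21 start lie at chr13:94712546-94712795 on the minus strand (GRCh38.p14), and the 170 bases between the RefSeq starts of SOX21 and SOX21-AS1 (chr13:94712546-94712715) are in capitals.

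SOX21: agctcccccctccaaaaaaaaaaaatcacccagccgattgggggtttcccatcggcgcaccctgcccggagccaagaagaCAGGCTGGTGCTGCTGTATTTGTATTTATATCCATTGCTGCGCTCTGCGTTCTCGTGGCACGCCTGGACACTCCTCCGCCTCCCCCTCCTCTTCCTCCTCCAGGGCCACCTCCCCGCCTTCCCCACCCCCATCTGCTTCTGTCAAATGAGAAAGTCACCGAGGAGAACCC

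SOX2 (ENSG00000181449, chr3:181711925-181714436, GRCh38, plus strand) lies within the span of the long noncoding RNA SOX2-OT on the same strand. SOX2 was measured at 305.5, 300.01 and 296.3 FPKM in siC versus 249.9, 278.8 and 243.1 FPKM in siMSI1, or 300.6 ± 4.61 and 257.3 ± 18.9 FPKM (SD, n = 3). All siMSI1 libraries were below all siC libraries, and the siMSI1 libraries were spread more widely. The log2 fold change was -0.23 (SE 0.071, 95% interval -0.39 to -0.06) with an unadjusted p of 0.0135 and an adjusted p of 0.0526, so that SOX2 missed the threshold. These values rest on 8774 to 13639 reads per library, and SOX2 ranked 64 among protein-coding genes in siC. Upon quantile normalization, the log2 fold change was -0.35 (adjusted p = 0.0153), and of 16 other fits, only voom with the replicate number as a block, run on recovered reads, called SOX2 lower (adjusted p = 0.000117). SOX3, the other SOXB1 member, had 0 reads in 6 of 6 libraries, which allows a level of up to 0.0778 to 0.107 FPKM.

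SOX21 (ENSG00000125285, chr13:94709622-94712545, minus strand) encodes a SOXB2 repressor. It was measured at 87.4, 89.7 and 86.0 FPKM in siC versus 77.7, 83.0 and 82.9 FPKM in siMSI1. The groups did not overlap, but the log2 fold change of -0.11 (SE 0.061, 95% interval -0.25 to 0.03) did not pass the test (adjusted p = 0.221). The interval excludes a decrease by more than 0.25 on the log2 scale. Relative to SOX2 of the same library, SOX21 amounted to 28.6%, 29.9% and 29.0% in siC and to 31.1%, 29.8% and 34.1% in siMSI1, and these ranges overlapped (exact permutation test, two-sided, p = 0.2, where 0.1 is the smallest p that 3 against 3 libraries allow).

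SOX4 (ENSG00000124766, chr6:21593751-21598619, plus strand), a SOXC factor of neuronal precursors and many tumors, was measured at 33.4, 34.2 and 30.9 FPKM in siC. In siMSI1, its levels were 29.7, 31.9 and 26.8 FPKM, and the groups overlapped. The log2 fold change was -0.16 (SE 0.082, 95% interval -0.35 to 0.03, adjusted p = 0.197). Its ratio to SOX2 was 10.9% ± 0.486 in siC and 11.4% ± 0.427 in siMSI1 (SD, n = 3; exact permutation test, two-sided, p = 0.2). SOX11, the other SOXC member, had 3 reads in siC replicate 2, 2 reads in siMSI1 replicate 1 and 0 reads in the other libraries. Thus, no comparison of SOX11 was possible at this depth. An antisense transcript over SOX4 (ENSG00000283480) had 4 to 16 reads per library and was not tested.

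SOXD transcripts were low. SOX5 (ENSG00000134532, chr12:23529504-24562544, minus strand) was measured at 2.998, 3.503 and 2.82 FPKM in siC versus 3.32, 3.02 and 2.25 FPKM in siMSI1, with overlapping groups and a log2 fold change of -0.12 (SE 0.161, 95% interval -0.50 to 0.25, adjusted p = 0.613). The sign of this difference rested on 1 library, since it was 0.03 without siMSI1 replicate 3. SOX6 (ENSG00000110693, chr11:15966449-16739591, minus strand) was close to the filter, at 0.581, 0.636 and 0.478 FPKM in siC versus 0.539, 0.602 and 0.521 FPKM in siMSI1. It had 135 to 226 reads per library and overlapping groups. The log2 fold change was -0.02 with a wide interval from -0.66 to 0.63 (SE 0.279, adjusted p = 0.969), and its sign changed when libraries were left out. The SE was 0.113 without trend and robust. The gene C11orf58, which overlaps SOX6 on the opposite strand, was measured at 14.2 FPKM in siC and 13.6 FPKM in siMSI1 (means of 3 libraries) and did not pass the test either (log2 fold change -0.07, adjusted p = 0.656).

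SOX9 (ENSG00000125398, chr17:72121020-72126416, plus strand) is a SOXE factor that promotes gliogenesis and maintains neural stem cells. It was measured at 22.6, 22.0 and 22.0 FPKM in siC versus 15.1, 14.9 and 13.6 FPKM in siMSI1. The siC libraries were nearly equal and each siMSI1 library was clearly below them. SOX9 fell by 0.61 on the log2 scale (SE 0.067, 95% interval -0.76 to -0.45, adjusted p = 0.000976), on the basis of 1247 to 1565 reads (siC) and 769 to 878 reads (siMSI1). The call was made in 16 of 16 other fits, with log2 fold changes of -0.64 to -0.56 and a largest adjusted p of 0.00871 when siC replicate 1 was left out. In the bulk libraries used here, fewer SOX9-expressing cells and less SOX9 RNA per cell cannot be told apart. The other SOXE members had almost no counted reads: SOX8 and SOX10 each had 1 read in siC replicate 3 and 0 reads elsewhere. POLR2F, which overlaps all 16737 bases of SOX10 on the opposite strand, had only 0 to 4 reads per library. Whether reads of this locus were lost in counting was not tested, so that the SOX10 count may understate its level.

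The level of SOX9 relative to SOX2 was lower in each siMSI1 library than in each siC library. SOX9 amounted to 7.41%, 7.33% and 7.43% of the SOX2 level in siC and to 6.06%, 5.36% and 5.60% in siMSI1. The groups were separated, and the exact permutation test gave its smallest possible two-sided p of 0.1. The summed level of the 10 SOX genes was 447.1 ± 7.38 FPKM in siC and 385.9 ± 23.1 FPKM in siMSI1 (SD, n = 3, exact permutation p = 0.1), and most of it was SOX2, with 67.2% ± 0.505 in siC and 66.6% ± 0.896 in siMSI1 (exact permutation p = 0.4). By subgroup, the SOXE sum moved from 22.2 to 14.6 FPKM (exact permutation p = 0.1), the SOXC sum from 32.9 to 29.5 FPKM (exact permutation p = 0.2) and the SOXD sum from 3.67 to 3.42 FPKM (exact permutation p = 0.7). These comparisons belong to a family of 16 ratios and sums, in which the Benjamini-Hochberg adjusted value is 0.16 for each raw p of 0.1, 0.246 for 0.2, 0.427 for 0.4 and 0.7 for 0.7, so that none can pass a threshold of 0.05.

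**Figure D2:**
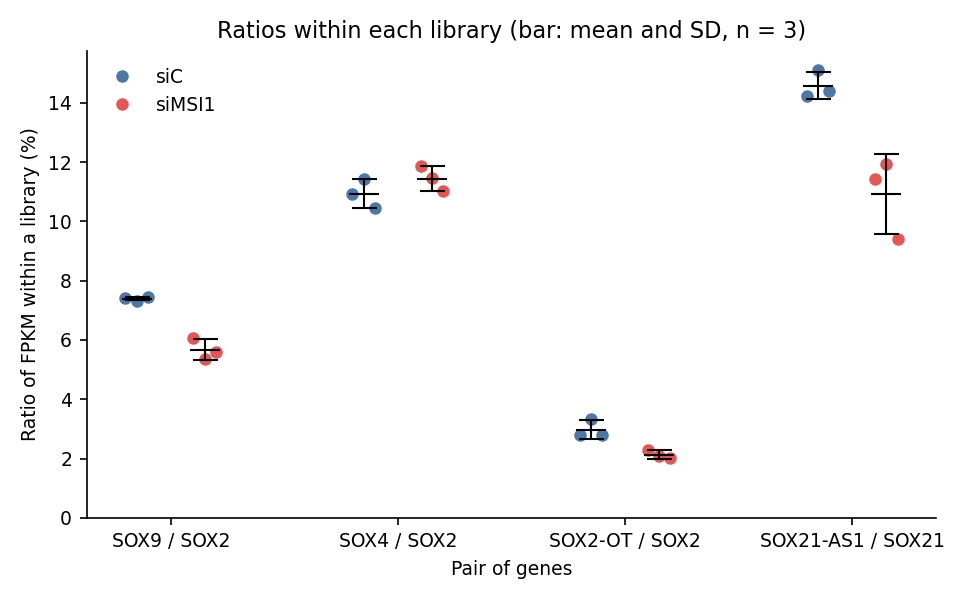
Ratio of the FPKM of 2 genes within the same library (%), shown for each siC and siMSI1 library with the group mean and SD (n = 3). SOX9 over SOX2, SOX2-OT over SOX2 and SOX21-AS1 over SOX21 are lower in each siMSI1 library than in each siC library, whereas SOX4 over SOX2 overlaps between the groups.

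Further SOX genes were examined for comparison, and 3 of 9 were tested. SOX18, a SOXF factor of endothelial and lymphatic development, increased from 3.47, 2.76 and 4.21 FPKM in siC to 14.3, 13.9 and 15.5 FPKM in siMSI1, a log2 fold change of 2.05 (SE 0.144, adjusted p = 0.000247) that was called in 16 of 16 other fits. The values rest on 93 to 113 reads (siC) and 340 to 416 reads (siMSI1). Of 4 endothelial markers, 3 exceeded the floor in at least 1 library, and their summed level was 0.134 to 0.262 FPKM in siC and 0.290 to 0.442 FPKM in siMSI1. Among these, PECAM1 had at most 1 read in siC and 5 to 8 reads in siMSI1, CDH5 at most 3 reads in siC and 9 to 22 reads in siMSI1, and CLDN5 at most 1 read. VWF, the endothelial marker with the most reads, had 20 to 37 reads in siC versus 14 to 21 reads in siMSI1. The part of these transcripts in the SOX18 value was not tested.

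SOX13, a SOXD factor known from cartilage and T cells, increased from 6.23, 5.55 and 6.97 FPKM in siC to 9.90, 9.77 and 9.97 FPKM in siMSI1. The log2 fold change was 0.66 (SE 0.094, adjusted p = 0.00257), whereas the signs of SOX5 and SOX6 were not stable across fits. The SOX13 call was made in 11 of 16 other fits. With all libraries kept, its adjusted p rose to 0.0102 without the filter on low genes and to 0.0104 without trend and robust. It rose to 0.0152 without siC replicate 1, to 0.0122 without siMSI1 replicate 1 and to 0.0107 without siMSI1 replicate 2. SOX12 had the highest mean level of the SOXC members in both groups, although its siC libraries overlapped those of SOX4. SOX12 was measured at 35.1, 32.8 and 39.3 FPKM in siC versus 36.4, 36.0 and 43.4 FPKM in siMSI1 (log2 fold change 0.11, 95% interval -0.12 to 0.34, adjusted p = 0.469). NRSN2-AS1, which overlaps SOX12 on the opposite strand, decreased (log2 fold change -0.62, adjusted p = 0.00622), a call made in 8 of 16 other fits. Of the SOX genes that were not tested, SOX7 had 6 to 9 reads in siC and 0 to 4 reads in siMSI1, SOX15 had 3 to 7 reads per library, SOX17 and SOX30 had at most 2 reads, and SOX1 and SOX14 had none.

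In siC, the order of mean levels was SOX2, SOX21, SOX12, SOX4, SOX9, SOX13, SOX18, SOX5 and SOX6. The libraries of neighbours in this order did not overlap except for SOX12 with SOX4 and SOX18 with SOX5. In siMSI1, SOX18 ranked beside SOX9, with 14.6 FPKM for both and overlapping libraries, whereas SOX12 was above SOX4 in each library. The ratio of SOX9 to SOX13 was 359% ± 40.3 in siC and 147% ± 9.48 in siMSI1 (SD, n = 3, exact permutation p = 0.1).

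**Figure D3:**
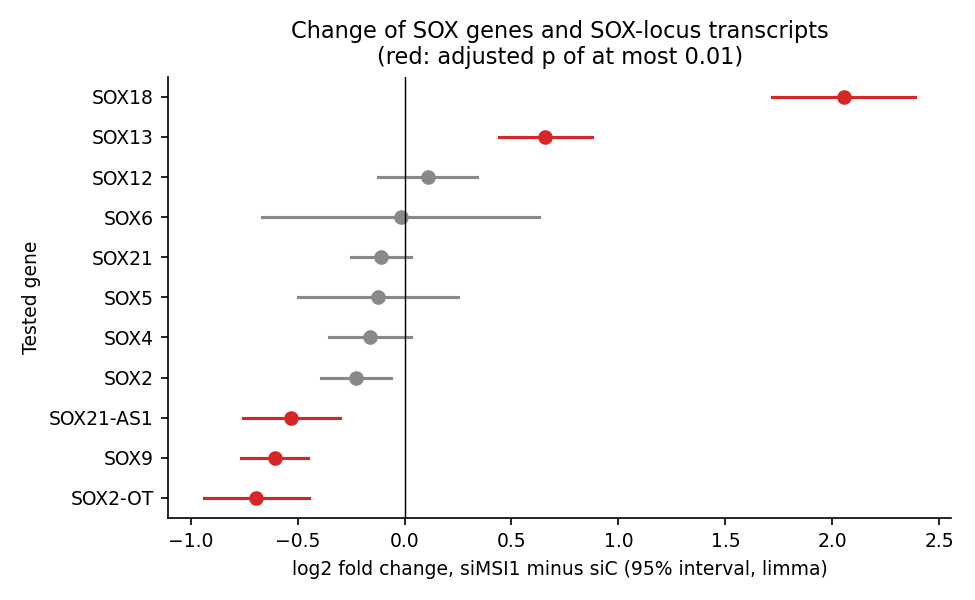
log2 fold change (siMSI1 minus siC) with its 95% interval from limma for the tested SOX genes and the transcripts named for a SOX locus, where red marks an adjusted p of at most 0.01. SOX9, SOX2-OT and SOX21-AS1 lie below 0, SOX13 and SOX18 above 0, and the intervals of SOX4, SOX5, SOX6, SOX12 and SOX21 include 0. The interval of SOX2 (-0.39 to -0.06) lies below 0, but SOX2 was not called.

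The long noncoding transcripts SOX2-OT and SOX21-AS1 decreased, whereas SOX2 and SOX21 did not pass the test. SOX2-OT (ENSG00000242808, chr3:180989762-181836880, plus strand) was measured at 8.53, 10.0 and 8.25 FPKM in siC versus 5.76, 5.78 and 4.91 FPKM in siMSI1. It fell by 0.69 on the log2 scale (SE 0.106, adjusted p = 0.00349), and its ratio to SOX2 was 2.97% ± 0.317 in siC and 2.13% ± 0.151 in siMSI1 (SD, n = 3, exact permutation p = 0.1). SOX21-AS1 (ENSG00000227640, chr13:94703454-94803430, plus strand), whose span in GENCODE 44 covers all 2924 bases of SOX21 on the opposite strand, was measured at 12.4, 13.5 and 12.4 FPKM in siC versus 8.88, 9.91 and 7.80 FPKM in siMSI1. It fell by 0.53 on the log2 scale (SE 0.098, adjusted p = 0.00761), and its ratio to SOX21 was 14.6% ± 0.459 in siC and 10.9% ± 1.34 in siMSI1 (SD, n = 3, exact permutation p = 0.1). SOX9-AS1, antisense to SOX9, had 28 to 40 reads (siC) and 11 to 22 reads (siMSI1) and was too low to be tested. The 6 other transcripts with such names had 0 reads.

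Each of these calls was made in 10 of 16 other fits. They were lost with all libraries kept, at an adjusted p of 0.0135 for SOX2-OT and 0.0255 for SOX21-AS1 without the filter on low genes and of 0.0128 and 0.0229 without trend and robust, and also when certain libraries were left out. The adjusted p of SOX2-OT was 0.0154 without siC replicate 1, 0.0112 without siC replicate 2, 0.0113 without siMSI1 replicate 1 and 0.0102 without siMSI1 replicate 2. For SOX21-AS1, it was 0.0298, 0.0281 and 0.0219 without siC replicate 1, 2 and 3, and 0.0259 without siMSI1 replicate 1. The libraries were prepared with strand information, but the strand setting of the counting is not given in the sources used here, and SOX2-OT shares its strand with SOX2, so that reads of overlapping genes may have been split or left out.

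**Figure D4:**
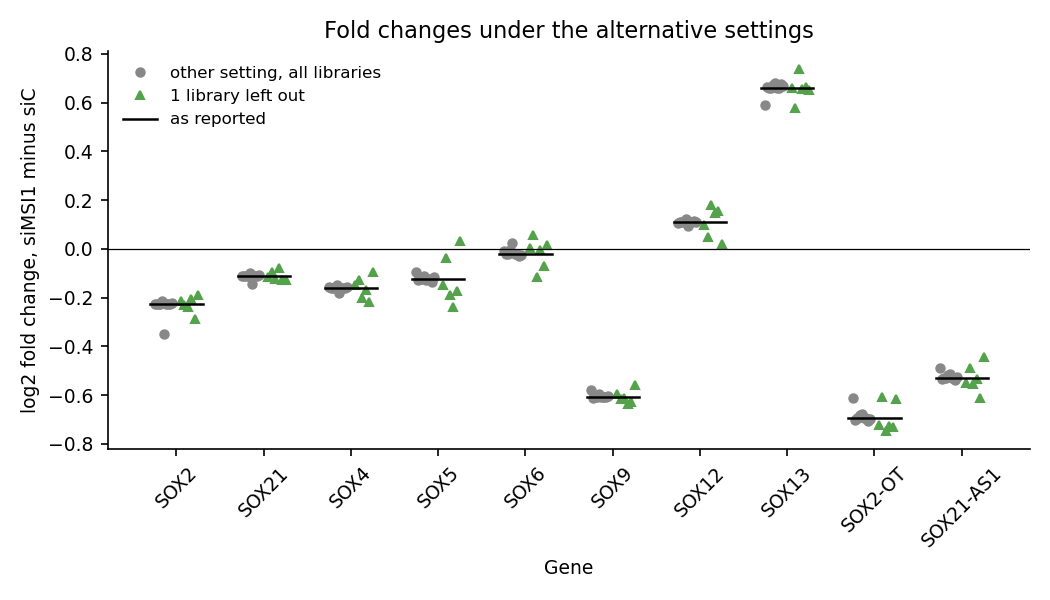
log2 fold change (siMSI1 minus siC) of SOX genes and locus transcripts as reported (line), under 10 other settings with all libraries (circles) and with 1 library left out (triangles). SOX9 stays between -0.64 and -0.56, quantile normalization sets SOX2 at -0.35, and SOX5 and SOX6 lie on both sides of 0.

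As MSI1 binds UAG-containing elements, the GUAG tetramer was counted in the longest annotated 3′UTR of each gene (GENCODE 44). GUAG occurred in 86.7% of 11185 tested protein-coding genes, with a median of 2.29 per kb. SOX9 had 2 in 2029 bases (0.986 per kb) and SOX2 had 2 in 1122 bases (1.78 per kb). These sites are shown since they are the GUAG elements of the member that was called and of the most abundant member. GUAG is in capitals with 12 bases on either side. The sites lie at chr17:72125823-72125850 and chr17:72126121-72126148 for SOX9 and at chr3:181713675-181713702 and chr3:181714254-181714281 for SOX2 (GRCh38, plus strand).

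SOX9 site 1: gagauugcaaauGUAGuguaucacugag
SOX9 site 2: uuuuagaagucaGUAGaauaaaaucuua
SOX2 site 1: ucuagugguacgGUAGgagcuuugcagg
SOX2 site 2: ccuuuauuuuccGUAGuuguauuuuaaa

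Of 2073 genes with a 3′UTR of like length, 90.4% had at least as many GUAG as SOX9. SOX4 had 7 in 2660 bases, SOX21 had 1 in 1597 bases, SOX5 had 10 in 4715 bases and SOX6 had 15 in 6360 bases. SOX13 had 1 and SOX18 had 0, in 1609 and 584 bases, respectively. Whether MSI1 binds any of these sites was not measured here.

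Partners and targets of SOX proteins were described by lists drawn from textbook knowledge, with the counts of called genes read against the 11% of all genes tested. Of 18 partner factors, 13 were tested, 2 fell, 1 rose and 10 did not pass the test (median log2 fold change -0.21). The POU factor POU2F1 was measured at 1.72 ± 0.199 FPKM in siC versus 0.934 ± 0.0733 FPKM in siMSI1 (SD, n = 3), with 340 to 535 reads and 191 to 235 reads per library and no overlap (log2 fold change -0.82, SE 0.159, adjusted p = 0.00922). NKX2-2, a homeodomain factor of oligodendrocyte precursors, was measured at 1.66, 1.51 and 1.56 FPKM in siC versus 0.713, 0.875 and 0.865 FPKM in siMSI1 (log2 fold change -0.87, SE 0.162, adjusted p = 0.00771). The NKX2-2 values rest on only 47 to 57 reads (siC) and 22 to 26 reads (siMSI1). POU3F4 moved the other way, from 3.44, 4.23 and 3.62 FPKM to 5.28, 6.12 and 5.53 FPKM (log2 fold change 0.57, SE 0.108, adjusted p = 0.00811). The more abundant neural POU factors did not pass the test, with a log2 fold change of -0.38 for POU3F2 (adjusted p = 0.0258) and 0.15 for POU3F3 (adjusted p = 0.125). The same held for CTNNB1, encoding β-catenin (0.10, adjusted p = 0.374), and NFIB, a factor of gliogenesis (-0.33, adjusted p = 0.0272).

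SOXB target genes included 6 tested genes of 12, of which 2 fell and 1 rose (median log2 fold change -0.38). FABP7, a fatty acid-binding protein of radial glia, was measured at 35.7, 38.4 and 34.3 FPKM in siC versus 17.0, 17.8 and 15.1 FPKM in siMSI1 (log2 fold change -1.12, SE 0.082, adjusted p = 0.000274). NOTCH1, a receptor that maintains neural progenitors, was measured at 2.30, 2.27 and 2.47 FPKM in siC versus 1.30, 1.15 and 1.21 FPKM in siMSI1 (log2 fold change -0.89, adjusted p = 0.00241). GFAP, the intermediate filament of astrocytes, rose from 1.33, 1.57 and 1.99 FPKM to 4.14, 4.65 and 5.04 FPKM (log2 fold change 1.46, SE 0.158, adjusted p = 0.000905). Other astrocyte markers differed in direction. AQP4, a water channel, rose from 23.9, 26.4 and 22.5 FPKM to 46.1, 43.6 and 37.8 FPKM (log2 fold change 0.80, SE 0.096, adjusted p = 0.00127), whereas the gap junction gene GJA1 fell by 0.62 on the log2 scale (adjusted p = 0.00359), a call made in 11 of 16 other fits. ALDH1L1 and S100B had 0 reads in all libraries. The summed level of the 6 markers, most of which was GJA1, was 279 to 326 FPKM in siC and 204 to 245 FPKM in siMSI1, and the part of these markers in the SOXB target values was not tested. The intermediate filament NES (log2 fold change -0.16, adjusted p = 0.0944), the phosphatase PTPRZ1 (0.55, adjusted p = 0.0103) and PROM1, encoding CD133 (-0.59, adjusted p = 0.134), did not pass the test. For PROM1, this differs from the study, which reported CD133 as significantly lower by edgeR at a false discovery rate of at most 0.01. Of 15 other fits, only voom with the replicate block called PROM1 lower (adjusted p = 0.00344), and its values rest on 48 to 139 reads per library.

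Of 8 SOXC target genes, 5 were tested and 2 fell (median log2 fold change -0.05). The histone methyltransferase EZH2 was measured at 20.5, 23.2 and 23.4 FPKM in siC versus 17.4, 17.0 and 16.1 FPKM in siMSI1 (log2 fold change -0.40, adjusted p = 0.00815). The neuronal adhesion molecule NRCAM was measured at 19.2, 20.3 and 17.9 FPKM in siC versus 15.2, 13.9 and 12.9 FPKM in siMSI1 (log2 fold change -0.45, adjusted p = 0.00822). The neuronal tubulin TUBB3 was at 1.52 to 1.95 FPKM throughout (adjusted p = 0.608). MARCKSL1, an actin regulator and the most abundant of these genes, had a difference of -0.05 (adjusted p = 0.698), and the guidance factor SEMA3C one of 0.39 (adjusted p = 0.151). Neuron markers reached a summed level of 11.9 to 13.8 FPKM in siC and 9.36 to 11.0 FPKM in siMSI1, with RBFOX3 at 0 reads, and their part in these values was not tested.

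Cartilage genes, the classical targets of SOX9 with SOX5 and SOX6, did not pass the test (median log2 fold change 0.19). Of 16 such genes, 5 were tested and 0 were called by limma, although 4 had an unadjusted p under 0.05, 2 with a lower and 2 with a higher level, and voom called 1 of the 5 without and 3 with a replicate block. The collagens COL9A3 and COL11A1 had log2 fold changes of -0.33 (adjusted p = 0.062) and 0.19 (adjusted p = 0.080). CRTAP, a collagen prolyl-hydroxylation cofactor, had 0.32 (adjusted p = 0.0154) and the receptor FGFR3 had -0.27 (adjusted p = 0.0551). COL2A1 and ACAN, the defining cartilage genes, had at most 6 reads and 1 read per library.

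SOX10 target genes of myelinating and pigment cells were tested for 6 of 18 genes, and 3 of these fell (median log2 fold change -0.35), with SOX10 itself at no more than 1 read per library. PMP22, a peripheral myelin protein, was measured at 13.3, 11.6 and 12.6 FPKM in siC versus 5.64, 6.47 and 6.76 FPKM in siMSI1 (log2 fold change -0.99, SE 0.093, adjusted p = 0.000554). MITF, the master regulator of melanocytes, was measured at 2.90, 2.77 and 2.27 FPKM in siC versus 1.41, 1.74 and 1.32 FPKM in siMSI1 (log2 fold change -0.79, adjusted p = 0.00929). The myelin genes MAG and MOG had 0 reads and MBP had at most 1 read per library. CNP, PDGFRA and EDNRB did not pass the test, with log2 fold changes of 0.08 (adjusted p = 0.554), 0.20 (adjusted p = 0.0621) and 0.15 (adjusted p = 0.328).

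Genes of SOX protein turnover were tested for 12 of 12, of which 4 fell and 8 did not pass the test (median log2 fold change -0.19). SKP2, an F-box subunit of SCF ubiquitin ligases, was measured at 32.7, 33.0 and 30.4 FPKM in siC versus 15.7, 14.8 and 13.5 FPKM in siMSI1 (log2 fold change -1.13, SE 0.077, adjusted p = 0.000247). WWP2, a ubiquitin ligase known to act on SOX proteins, was measured at 6.86, 6.68 and 7.14 FPKM in siC versus 3.45, 3.77 and 3.92 FPKM in siMSI1 (log2 fold change -0.88, SE 0.085, adjusted p = 0.000593). CUL1, the scaffold of SCF ligases, fell by 0.42 on the log2 scale (adjusted p = 0.00425). The deubiquitinase USP9X had -0.43 and was just inside the threshold (adjusted p = 0.00999), whereas the deubiquitinase USP28 was just outside (-0.37, adjusted p = 0.0114). UBE2S, the most abundant gene of this list, had -0.17 (adjusted p = 0.230), and the ligase components CUL4A and COP1 each had 0.02 (adjusted p = 0.875 and 0.902). As protein was not measured, these values say nothing on the turnover of SOX proteins.

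**Figure D5:**
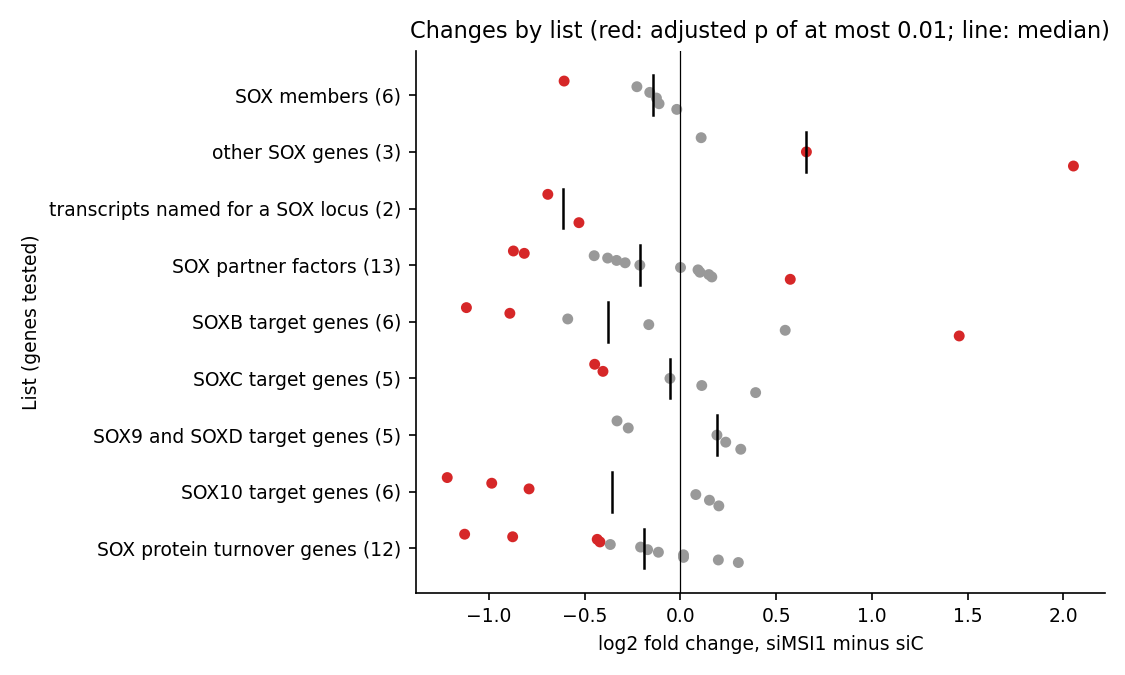
log2 fold change (siMSI1 minus siC) of each tested gene by list, with the number of genes tested in parentheses, red for an adjusted p of at most 0.01 and a line at the list's median. Called genes lie on both sides of 0 among partner factors and SOXB targets, and below 0 among SOXC targets, SOX10 targets and turnover genes. None are called among the SOX9 and SOXD targets, a list of cartilage genes of which only 5 of 16 were tested.

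Over the partner, target and turnover lists, 15 of 47 tested genes were called, 13 as lower and 2 as higher. Of all genes tested, 11% were called, 5.83% as lower and 5.15% as higher. Since the lists were chosen with earlier results of these data known, the pooled count only describes the genes listed. FABP7, GFAP, PMP22, SKP2 and WWP2 were called in each of 16 other fits. The other calls named were less stable. They were made in 6 (USP9X), 7 (EZH2), 8 (POU2F1, NKX2-2, NRCAM and MITF), 9 (POU3F4 and CUL1) and 13 (NOTCH1) of 16 other fits. Calls over the 47 genes numbered 5 without siC replicate 1 or siC replicate 3, 7 without siC replicate 2, siMSI1 replicate 1 or siMSI1 replicate 2, and 9 without siMSI1 replicate 3.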

How the data were processed

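Total RNA of KNS42 cells, harvested 72 h after transfection, was enriched for polyA RNA and used for strand-specific libraries (per the labels). Per the submitters' processing notes and the methods of the study, reads were clipped with cutadapt 1.14, aligned to GRCh38 (hg38) with HISAT2 2.1.0, handled with SAMtools 1.5 and summarized per gene with featureCounts 1.5.3 on an Ensembl annotation. The authors deposited FPKM values of 58174 genes in 6 libraries. The same table holds their own log2 fold changes, p-values and false discovery rates from edgeR 3.18.1, which were not used here, and 0 columns of unmapped libraries. Multiplying FPKM by gene length gave whole reads for 100% of values (tolerance 0.01 reads), with 13087025 to 18024080 reads per library. The library size behind the FPKM values was 0.977 to 1.025 times these reads. The voom fits took the reads themselves as library size, so that they differ from the limma fit on FPKM in scaling as well. Libraries of a group differed by at least 3.55 times what sampling noise gives (chi-square over its degrees of freedom) and were each counted as 1 sample.

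Groups were taken from the labels. limma 3.58.1 in R 4.3.3 (lmFit, then eBayes with trend and robust, statmod 1.5.0) was applied to log2(FPKM + 0.1), restricted to 15069 genes whose mean reached 0.5 FPKM. A fold change on this scale understates that of low genes. Benjamini-Hochberg adjustment covered all genes tested, with a threshold of 0.01, and the fit was tested on simulated data. Ratios and sums were compared by exact permutation of the 6 libraries. Genes named were the 10 SOX genes, the tested other SOX genes, the called members of each list with up to 4 others of the highest mean FPKM, MSI1, and genes overlapping tested SOX genes. The values of 1 called list member are not reported here. Cell type markers and genes with few reads were named in addition, after their values were seen. The members and lists were chosen with earlier results of these data known. Promoter sequences were taken from RefSeq (GRCh38.p14, 250 bases before the start), and gene spans and 3′UTRs from GENCODE 44, which is another annotation release than the one used for counting. Tables and figures were made in Python 3.11.15 (pandas 2.3.3, numpy 2.4.6, matplotlib 3.10.9). Alternatives were other added values (1 and 0.01), no filter or a mean FPKM of at least 1, median centring, quantile normalization, eBayes without trend and robust, a replicate block, voom on recovered reads with and without that block, leaving out each library and an adjusted p of 0.05.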

Additional observations from a re-analysis of the deposited data

How the results depend on the processing

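The count of called genes among the 10 SOX genes was 1 in the reported fit and under the alternatives, except that voom on recovered reads with a replicate block called 2 (SOX9 and SOX2). Of the other SOX genes, 2 were called, but 1 without the filter on low genes, 1 without trend and robust, and 1 to 2 when 1 library was left out, with SOX18 always among them. For the partner, target and turnover lists, 15 calls became 7 without the filter, 9 without trend and robust, 29 with voom and a replicate block, and 5 to 9 when 1 library was left out. Over all genes, 1655 calls became 792 without the filter, 847 without trend and robust, 2690 with voom, 4870 with voom and a replicate block, 3787 at an adjusted p of 0.05, and 517 to 1603 when 1 library was left out. The last of these ranges comes from fits to fewer libraries, and the cause of the other shifts was not tested. The sign turned for SOX5 without siMSI1 replicate 3 (0.034, with a range of -0.24 to 0.034 over the libraries left out) and for SOX6 upon quantile normalization (0.024) and when libraries were left out (-0.117 to 0.058), all short of the threshold. Whether the replicate numbers pair the libraries was not settled. Deviations of same-numbered libraries from their group means correlated at -0.066, 0.078 and 0.083, and not every library correlated best with its own number. However, the replicate block in limma lowered the SE of SOX4 from 0.082 to 0.048 and that of SOX2-OT from 0.106 to 0.070. Among the tested SOX genes and locus transcripts, the SE rose only for SOX6, from 0.279 to 0.304. With the replicate block in limma on FPKM, 2250 genes were called in all, with 1 of the 10 SOX genes, 2 of the other SOX genes and 17 of the list genes. The median log2 fold change of all genes moved by at most 0.012 under any setting. Among the tested SOX genes, SOX2-OT and SOX21-AS1, median centring turned no direction and quantile normalization turned that of SOX6. The SOX genes under the floor are limited by depth, and a loss of reads to overlapping genes, as may concern SOX10, was not tested.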
